A study of Mus musculus with 18 samples.

Results

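The genes described are 10 effectors and targets of canonical Wnt signalling in mouse embryonic stem (ES) cells: *Axin2*, *Sp5*, *Lef1*, *Tcf7*, *Tcf7l1*, *Tcf7l2*, *Ctnnb1*, *Nkd1*, *Dkk1* and *Cdx1*. They were chosen by name, and all 10 of them were found among the 21859 protein-coding genes measured by transient transcriptome sequencing (TT-seq), in which newly made transcripts are tagged with 4-thiouridine (4sU) and purified before sequencing. Promoter upstream transcripts (PROMPTs), which run divergently from a gene's promoter, were measured for 8 of the 10 among 32253 PROMPTs, and those of *Lef1* and *Tcf7* were not analysed here.

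The 18 TT-seq libraries came from the feeder-free E14 ES cell line, in 6 groups of 3. Untagged cells carrying osTIR1, the plant receptor that directs an auxin-bound degron to destruction, received 0.1% ethanol (Untagged_EtOH) or 3-indoleacetic acid (3-IAA, an auxin; Untagged_3-IAA) for 24 h. Clone 1 and clone 2, each a single line homozygous for a C-terminal mini-AID and triple V5 tag on SPT16 and also carrying osTIR1, received the same treatments (SPT16_AID_V5_Clone1_EtOH, SPT16_AID_V5_Clone1_3-IAA, SPT16_AID_V5_Clone2_EtOH and SPT16_AID_V5_Clone2_3-IAA). The paper counts replicates of the same line as technical, and clone 1 and clone 2 as the biological replicates. SPT16 is a subunit of the histone chaperone FACT, and 3-IAA depletes the tagged protein. All groups were pulsed with 4sU for 5 min and grown in serum with LIF, the GSK3 inhibitor CHIR99021 and the MEK inhibitor PD0325091. GSK3 is the kinase that marks β-catenin for destruction, so every library, controls included, came from cells in which this step of the Wnt pathway was inhibited by the medium.

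In canonical Wnt signalling, a secreted Wnt binds a Frizzled receptor and an LRP co-receptor, the complex of Axin, APC, CK1 and GSK3 stops degrading β-catenin, and β-catenin enters the nucleus. There it binds the TCF/LEF proteins, which recognise DNA through an HMG box, and displaces the Groucho/TLE co-repressors. In ES cells, TCF7L1 represses pluripotency genes, and relief of this repression is one way by which GSK3 inhibition favours self-renewal. Several targets of the pathway, among them *Axin2*, *Nkd1* and *Dkk1*, encode its own inhibitors.

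Each value below is a mean normalised read count that the authors pooled over libraries, one per gene or PROMPT. It mixes control and SPT16-depleted libraries and comes with no replicate values, so no spread, no test and no effect of SPT16 depletion are given, and the order of genes with close levels cannot be tested. Because these are bulk libraries, fewer cells making an RNA and less RNA made per cell cannot be told apart. Among 20157 genes with reads the median was 421 mean normalised counts. Levels of different genes were compared per kb of gene span, introns included. Values per kb of exons, given as an alternative, divide the same whole-span counts by exon length. They are therefore not levels of exonic RNA, and they favour genes with long introns. Per kb of span the median was 21.7 and the upper quartile 117. All 8 ES cell markers lay above that median, between 401 and 5779 per kb, in accord with the label of the cells. None of 5 fibroblast or 5 primitive endoderm markers did, with highest levels of 4.94 and 6.26 per kb. Of the other lineages, 2 of 6 trophectoderm markers (*Krt8* at 34.4 and *Eomes* at 25.1 per kb), 2 of 5 primitive streak markers (*T* at 25.7 and again *Eomes*) and 1 of 4 neural markers (*Sox1* at 50.7) were above it. The neural marker *Tubb3* was at 0, but its whole span lies within another coding gene, as do those of 325 genes, of which 323 were at exactly 0.

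The promoters of *Sp5*, a transcription factor gene directly induced by β-catenin, and *Axin2*, the most widely used Wnt target, are shown because they have the highest levels per kb of span of the target genes (not per kb of exons, where *Znrf3* and *Axin2* led) and differ in sequence. Both are the 250 bases before the RefSeq start in build GRCm38.p6, 5′ to 3′ on the gene's strand, at chr2:70474673-70474922 (plus strand) for *Sp5* and chr11:108920099-108920348 (plus strand) for *Axin2*. Capitals mark the TCF/LEF core letters CTTTG or their reverse complement CAAAG in *Sp5*, and the GC box letters GGGCGG in *Axin2*, which has no CTTTG on either strand in this window.
Sp5: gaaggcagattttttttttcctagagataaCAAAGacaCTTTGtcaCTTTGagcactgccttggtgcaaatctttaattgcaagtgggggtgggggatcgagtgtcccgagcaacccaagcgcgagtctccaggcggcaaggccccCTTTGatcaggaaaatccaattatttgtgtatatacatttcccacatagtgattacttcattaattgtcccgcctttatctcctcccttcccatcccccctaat
Axin2: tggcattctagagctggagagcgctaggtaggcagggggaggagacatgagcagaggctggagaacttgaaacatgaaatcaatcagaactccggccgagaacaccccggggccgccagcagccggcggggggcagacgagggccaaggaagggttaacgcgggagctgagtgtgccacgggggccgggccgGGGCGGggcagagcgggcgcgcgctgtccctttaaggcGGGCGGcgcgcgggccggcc

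The fuller TCF/LEF letters CTTTGAT, searched on both strands, occurred in 3.73% of all 32851 promoter windows of 300 bases (250 before and 50 after a RefSeq start). The 9 members with such windows had 15 of them, up to 4 a gene, so a count of members is not on the same footing as a share of windows, and both are given. The first and second *Lef1* windows overlap, as do both *Ctnnb1* windows, so letters in the shared bases are counted in each. Of the 9 members with such a window, only *Sp5* held them, beginning 104 bases before its start, in aaggccccCTTTGATcaggaaaa (chr2:70474811-70474833). The letters CTTTGA, which every CTTTGAT also contains, were in 16.0% of all windows and in 3 of the 15, those of *Sp5*, *Dkk1* and *Lef1*. *Dkk1* held them on either strand, in ggagagtgTCAAAGtcctccct (chr19:30549657-30549678, minus strand) and tcccaaagCTTTGAaatcccat (chr19:30549600-30549621, minus strand). In *Lef1* they lay in the window of an internal start, in atacatggTCAAAGgaaaatag (chr3:131156106-131156127, plus strand) and gtctgttcTCAAAGtcaggtct (chr3:131156166-131156187, plus strand). The core CTTTG, contained in both longer forms, was in 53.9% of all windows, in 9 of the 15 and in 5 of the 9 members, adding *Tcf7l1* with tgtcaaaaCTTTGtcgccgca (chr6:72789061-72789081, minus strand) and *Tcf7l2* with ccggcgccCAAAGgatcattg (chr19:55741691-55741711, plus strand) to the 3 above. The 9 windows with the core included windows of internal starts in *Lef1* and *Tcf7l2*. Capitals in these short stretches mark the match.

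The windows differed in base composition. *Axin2*, *Ctnnb1*, *Tcf7l1*, the first *Tcf7l2* window and the more upstream *Tcf7* window were rich in CpG, with observed over expected ratios from 0.799 in *Tcf7l1* to 1.21 in the second *Ctnnb1* window, against a median of 0.384 over all windows. *Sp5*, *Dkk1* and *Nkd1* lay near or under that median, at 0.403, 0.327 and 0.247, and the 4 *Lef1* windows ran from 0.350 to 0.620. GC boxes were in the windows of 6 members, all but *Sp5*, *Dkk1* and *Nkd1*, in 10 of the 15 windows and in 35.7% of all windows. The TATA letters TATAAA were in 13.6% of all windows and in 5 of the 15, each of another member, 54 bases before the *Dkk1* start but in other positions in *Lef1*, *Tcf7*, *Tcf7l2* and *Ctnnb1*. These matches describe the letters in the windows only. The RefSeq starts of *Ctnnb1* lay 4184 and 4362 bases and that of *Nkd1* 6279 bases inside the 5′ end of the Gencode gene. The TATAAA windows of *Lef1* and *Tcf7l2* were those of internal starts, 45823 and 153501 bases inside that end.

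The 10 genes covered a 53.7-fold range per kb, and 9 of them lay above the median of all genes with reads, as did 9 by undivided counts, *Nkd1* being the exception per kb of span and *Dkk1* by counts and per kb of exons. In falling order per kb of span they were *Ctnnb1*, *Sp5*, *Axin2*, *Tcf7*, *Cdx1*, *Tcf7l1*, *Tcf7l2*, *Lef1*, *Dkk1* and *Nkd1*. *Tcf7* exceeded *Cdx1* by only 1.02 times, *Cdx1* exceeded *Tcf7l1* by 1.11 times and *Lef1* exceeded *Dkk1* by 1.06 times, so these neighbours cannot be ordered from pooled means. The widest steps between neighbours were 3.99 times from *Dkk1* to *Nkd1* and 2.44 times from *Axin2* to *Tcf7*. Their median was 133 per kb, 6 of the 10 were above the upper quartile of all genes, and the 3 highest were above its 90th percentile of 239.

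**Figure D1:**
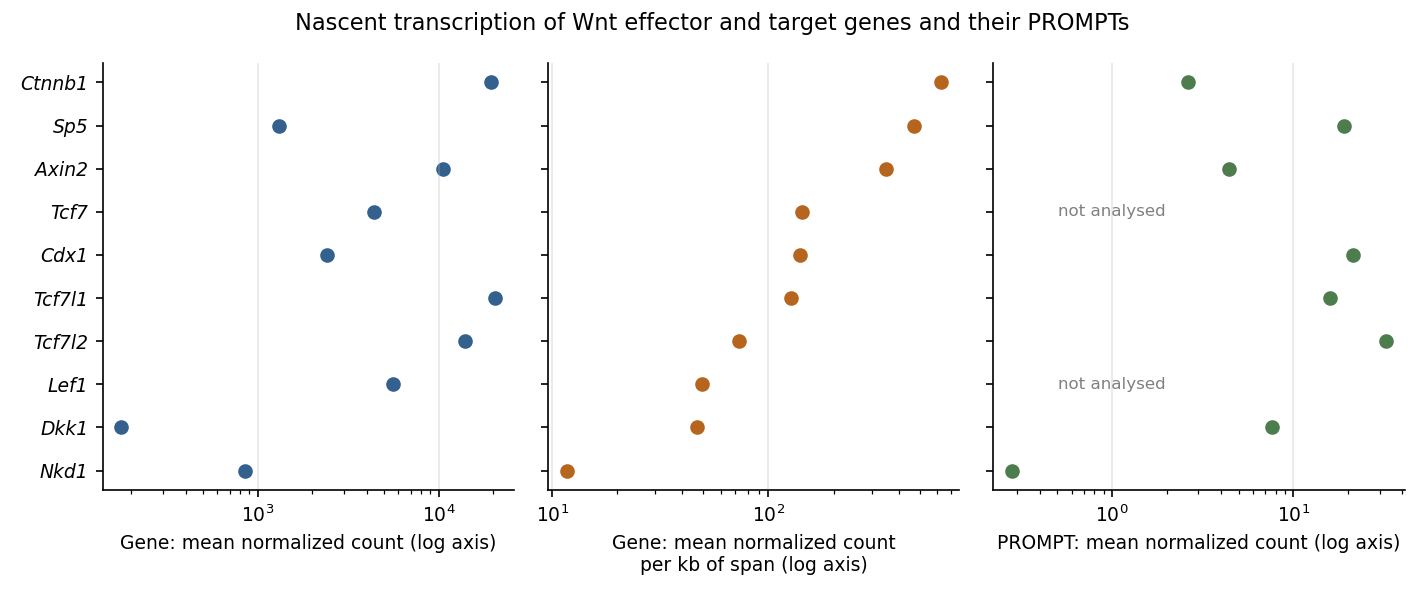
Mean normalised count per gene (left), the same per kb of gene span (middle) and mean normalised count of the gene's PROMPT (right) for the 10 Wnt effector and target genes, each point 1 mean pooled by the authors over libraries, on log axes, with genes ordered by level per kb. *Tcf7l1* has the highest count but the sixth level per kb, *Sp5* the eighth count but the second level per kb, and *Tcf7l2* the highest PROMPT.

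**Figure D2:**
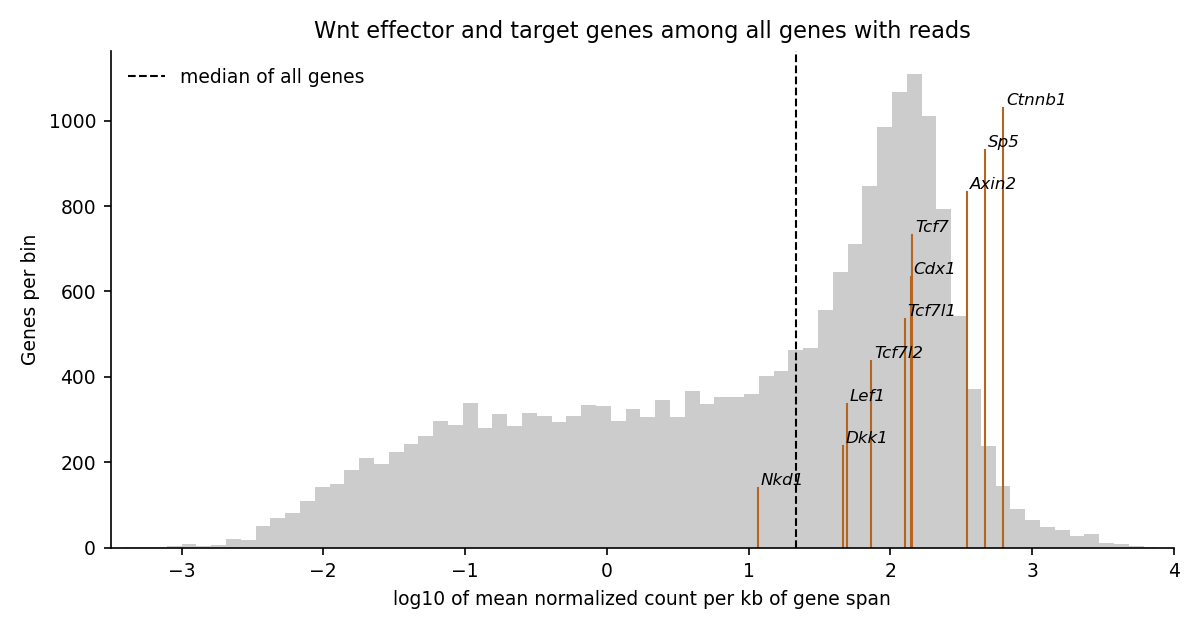
Histogram of the log10 mean normalised count per kb of gene span over all 20140 genes with reads that were matched to the annotation (grey), with the 10 Wnt effector and target genes as vertical lines of arbitrary height and the median of all genes dashed. Only *Nkd1* lies left of the median, and *Axin2*, *Sp5* and *Ctnnb1* lie on the upper flank of the main peak.

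Among the effectors, *Ctnnb1* was highest per kb of span, whereas *Tcf7l1* was highest by counts and per kb of exons. *Ctnnb1* encodes β-catenin, which acts both in adherens junctions and as the co-activator of TCF/LEF. It lies on the plus strand of chromosome 9 (chr9:120929216-120960507, build GRCm38) and had 19595 mean normalised counts, or 626 per kb over its 31.3 kb, percentile 98.0 of all genes. Its closest relative *Jup*, which encodes plakoglobin, stood at 236 per kb, so that *Ctnnb1* made up 72.6% of the sum of both.

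All 4 TCF/LEF genes were transcribed above the median level per kb of all genes. *Tcf7* encodes TCF1, generally an activator in ES cells, lies on the minus strand of chromosome 11 (chr11:52252371-52283014) and had 4381 counts, or 143 per kb over 30.6 kb. *Tcf7l1* encodes TCF3, the main repressor among them in ES cells, lies on the minus strand of chromosome 6 (chr6:72626378-72789254) and had 20593 counts, the most of all 10 genes, but 126 per kb over 163 kb. *Tcf7l2* encodes TCF4, lies on the plus strand of chromosome 19 (chr19:55741820-55933654) and had 14038 counts, or 73.2 per kb over 192 kb. *Lef1*, itself a target of the pathway in many tissues, lies on the plus strand of chromosome 3 (chr3:131110471-131224356) and had 5618 counts, or 49.3 per kb over 114 kb.
Of the summed level per kb of the 4 genes, *Tcf7* made up 36.5%, *Tcf7l1* 32.3%, *Tcf7l2* 18.7% and *Lef1* 12.6%. This order changed with the divisor: with the same whole-span counts per kb of exons, *Tcf7l1* alone made up 57.3% and *Tcf7* 18.2%. Exons cover only 2.41% of the *Tcf7l1* span and 8.57% of the *Tcf7* span, and nascent reads fall on introns too.

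The targets that encode feedback inhibitors spanned the widest range. *Axin2*, a scaffold of the β-catenin destruction complex, lies on the plus strand of chromosome 11 (chr11:108920349-108950783) and had 10605 counts, or 348 per kb, percentile 94.8. It exceeded its constitutive paralogue *Axin1*, at 168 per kb, and made up 67.5% of the sum of both, but 43.5% per kb of exons. *Dkk1*, a secreted antagonist of the LRP co-receptors, lies on the minus strand of chromosome 19 (chr19:30545863-30549665) and had 177 counts, the fewest of the 10 genes, but 46.5 per kb over its 3.80 kb, above the median of all genes. *Dkk3* was at 13.8, *Dkk4* at 0.475 and *Dkk2* at 0.0499 per kb. *Dkk1* made up 76.4% of the sum of the 4 per kb of span but 28.8% per kb of exons, where *Dkk3* was higher, as it also was by counts (595).
*Nkd1*, which binds Dishevelled and restrains the pathway, lies on the plus strand of chromosome 8 (chr8:88521354-88594884) and had 857 counts over 73.5 kb. At 11.7 per kb, percentile 44.8, it was the only one of the 10 genes below the median, with its paralogue *Nkd2* at 9.89. The pair lay further apart per kb of exons, at 188 for *Nkd1* and 59.6 for *Nkd2*.

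*Sp5* and *Cdx1*, targets among the 10 that encode transcription factors outside the TCF/LEF family, were well above the median per kb of span. *Sp5* lies on the plus strand of chromosome 2 (chr2:70474923-70477729) and had 1318 counts within only 2.81 kb, or 470 per kb, percentile 96.8. Its relative *Sp8* was at 9.61 per kb, so *Sp5* made up 98.0% of the sum of both. *Cdx1*, a caudal homeobox gene of the posterior embryo and intestine, lies on the minus strand of chromosome 18 (chr18:61018862-61036199) and had 2424 counts, or 140 per kb, percentile 78.8. The related *Cdx2* was at 20.8 and *Cdx4* at 3.59 per kb, and *Cdx1* made up 85.2% of the sum of the 3.

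The PROMPTs of the 8 genes ranked differently from the genes. They ran over the 1 kb upstream of each start, and over all 23257 PROMPTs with reads the median was 0.815 mean normalised counts, with 16.0% at 10 or more. *Tcf7l2* had the highest, at 32.5, followed by *Cdx1* at 21.2, *Sp5* at 19.0 and *Tcf7l1* at 16.0, so that 4 of the 8 reached 10. *Dkk1* was at 7.66, *Axin2* at 4.42 and *Ctnnb1* at 2.64, each above the median. *Nkd1* was at 0.281, below the median. That equals at most 10 reads over the pooled libraries if the lowest value above 0 stood for 1 read, so it is poorly measured. RefSeq places the *Ctnnb1* starts 4184 and 4362 bases and the *Nkd1* start 6279 bases inside the Gencode 5′ end. Each of these genes had a single PROMPT value, and whether its window lay at the start in use was not tested. By gene level, the median PROMPT was 6.26 over the 4384 genes at 100 or more per kb, 1.71 over the 4623 genes between 10 and 100, and 0.0881 over the 7596 genes under 10. Unlike the median of 0.815, these medians cover only PROMPTs paired with a gene with reads, and they include PROMPTs without reads. Within these ranges, 5 of the 8 PROMPTs were above the median, those of *Sp5*, *Cdx1* and *Tcf7l1* among genes at 100 or more per kb and those of *Tcf7l2* and *Dkk1* among genes between 10 and 100. Those of *Ctnnb1* and *Axin2*, in the first range, and *Nkd1*, in the second, were below it.

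As a ratio of PROMPT to gene level per kb, the 8 genes ran from 0.421% in *Ctnnb1* to 44.4% in *Tcf7l2*. Gene and PROMPT values come from separate tables, and the sources used here do not say that they share a scale, so the ratio is read only by its place among 16603 pairs of a gene with reads and its PROMPT, 13696 of which had PROMPT reads. Their median was 4.51%. *Tcf7l2* lay at percentile 81.1, *Dkk1* (16.5%) at 69.2, *Cdx1* (15.2%) at 68.2 and *Tcf7l1* (12.6%) at 65.5. *Sp5* (4.05%), *Nkd1* (2.41%), *Axin2* (1.27%) and *Ctnnb1* lay below the median, the last at percentile 24.8. The limit given above on the PROMPT windows of *Ctnnb1* and *Nkd1* holds for their ratios too. *Sp5* and *Tcf7l1* changed sides with the length used. *Sp5* was at percentile 69.5 with exons and 74.6 without division by length, and *Tcf7l1* at 39.4 and 41.2.

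**Figure D3:**
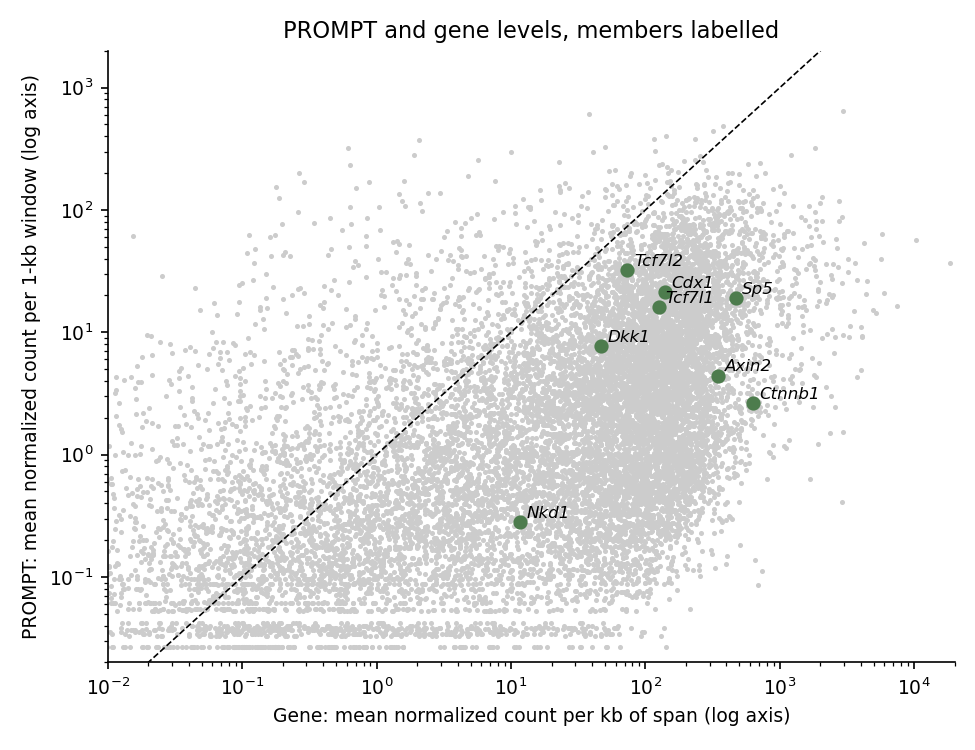
Mean normalised count of each PROMPT per 1 kb window against the mean normalised count per kb of its gene, both on log axes, for all pairs with reads in both tables and within the plotted range (grey) and for the 8 Wnt effector and target genes with a PROMPT (green), with equality dashed. *Ctnnb1* and *Axin2* lie at high gene levels, with PROMPTs low for such genes but above the median of all PROMPTs with reads. *Tcf7l2* lies nearest to equality among the 8 genes.

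Across the pathway, the lists of components inside the cell had higher medians per kb (190 for the destruction complex, 117 for Dishevelled and its inhibitors, 111 for β-catenin, TCF/LEF and partners) than those of ligands (1.46) and secreted inhibitors (1.40). Of 99 pathway genes listed by role, 96 had at least 1 mean normalised count, or 97.0% against 80.9% of all genes in the table. At least 10 were had by 88, or 88.9% against 70.6% of all genes, and 52 lay above the median per kb. The 89 that are not among the 10 genes above had a median of 20.3 per kb, near that of all genes, and 43 of them were above it. Levels and leading genes of the lists are per kb of span, and other genes can lead per kb of exons.

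Of 19 Wnt ligand genes, 1 was above the median of all genes (2 per kb of exons, with *Wnt5b*), *Wnt9a* at 30.2 per kb, followed by *Wnt11* at 20.3, and the median of the list was 1.46. *Wnt1*, *Wnt2*, *Wnt2b*, *Wnt5a* and *Wnt16* had fewer than 10 mean normalised counts. Of the genes for processing ligands, *Notum*, a secreted deacylase that inactivates Wnts and is itself a target, was at 143 and *Porcn*, the acyltransferase that makes Wnts active, at 35.9 per kb, both above the median, and *Wls*, which carries them to the surface, was at 11.8. Of 12 secreted inhibitors, 4 were above it: *Sfrp1* at 278, *Dkk1* at 46.5, *Sfrp4* at 41.7 and *Sfrp2* at 36.4 per kb. R-spondins amplify the signal through LGR receptors and the ubiquitin ligases RNF43 and ZNRF3, and 3 of these 9 genes were above the median, *Lgr4* at 146, *Znrf3* at 126 and *Rnf43* at 23.8 per kb, none of them a ligand. *Lgr5*, a target and stem cell marker of the intestine, was at 0.185.

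Of 15 receptor genes, 11 were above the median per kb of span but 7 per kb of exons, where *Ror2* led. Per kb of span they were led by *Fzd5* at 783 and *Fzd10* at 513 per kb, with *Lrp6* at 115 and *Lrp5* at 84.4. *Fzd6*, *Fzd3*, *Fzd1* and *Ror1* were below it. All 3 Dishevelled genes, which relay the signal from Frizzled, were above it, *Dvl2* at 200, *Dvl3* at 145 and *Dvl1* at 117 per kb, and the inhibitors *Nkd1* and *Nkd2* were not. Of 10 destruction complex genes, 9 were above it, led by *Csnk1a1* at 852 and *Axin2* at 348, and *Apc2* at 6.98 was not. *Gsk3a* and *Gsk3b*, whose products the medium inhibited, were at 200 and 179 per kb.

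Of 16 genes for β-catenin, TCF/LEF and their partners, 14 were above the median, led by *Ctnnb1* and by the co-repressor gene *Tle3* at 346 per kb, and *Pygo1* at 11.6 and *Tle2* at 5.93 were not. Of 19 target genes, which share members with other lists, 12 were above it, with *Sp5* and *Axin2* highest per kb of span. Per kb of exons *Znrf3* was highest at 2687, and *Sp5*, at 628, was below *Axin2*, *Tcf7*, *Cdx1* and *Lef1* too. The median of this list was 46.5 per kb, that of *Dkk1*, and its other members above the median of all genes included *Ccnd1*, the cyclin D1 gene, at 177 and *Myc* at 56.9.

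**Figure D4:**
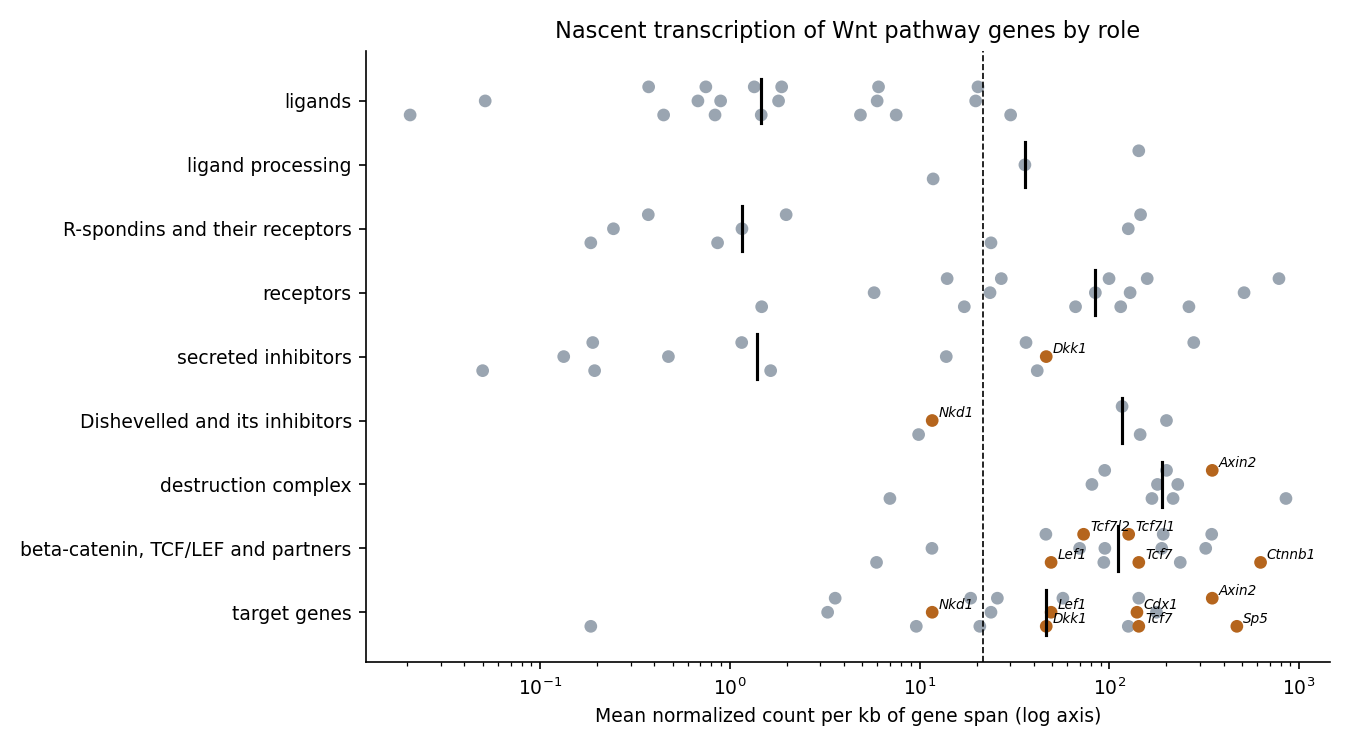
Mean normalised count per kb of gene span, on a log axis, of each Wnt pathway gene, 1 point per gene, by role, with the 10 named effector and target genes in orange, the other genes in grey, the median of each list as a black bar and the median of all genes dashed. Genes in more than 1 list appear in each, points are offset vertically only to separate them, and the medians of ligands, R-spondins with their receptors, and secreted inhibitors lie left of the dashed line while all others lie right of it.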

How the data were processed

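Nascent RNA was labelled with 4sU and sequenced as strand-specific, paired-end TT-seq libraries. Per the methods, the authors trimmed reads, kept unique STAR alignments to mm10, counted them by strand with featureCounts over Gencode vM25 genes and 1 kb PROMPT windows, and ran DESeq2. The deposited gene and PROMPT tables hold, per feature, the mean of counts divided by size factors, a signal that the authors pooled over libraries. Which libraries entered that mean and the total count of each library are not given in the sources used here, so no interval or floor is given.

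The remaining columns hold the authors' own comparison (shrunken log2 fold change, its standard error, p and adjusted p). They were not used, so no depletion effect is reported. The enhancer and other non-coding tables were not used.

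Levels were divided by gene span from Gencode vM21 (GRCm38), which matched 21817 of 21859 genes, with pandas 2.3.3 (Python 3.11.15). Span was the length counted over: of 325 genes lying within another coding gene on the same strand, 323 were at exactly 0, against 6.30% of the other genes. None of the 10 genes overlaps a coding gene on its strand. Percentiles are over features with reads, and those of ratios over pairs whose gene had reads. The motif search, the search for genes within another gene and the percentile function were checked on small made-up examples. Alternatives were another length, other minimum levels and shorter motifs. Promoters were RefSeq windows matched by symbol for 9 of 10 genes, and no *Cdx1* promoter was searched. Named genes were the 10, the 2 highest of each pathway list and those needed to account for small counts, with *Lrp5*, *Lrp6*, *Gsk3a*, *Gsk3b*, *Lgr5*, *Ccnd1*, *Myc*, *Wnt5b*, *Ror2* and the paralogues added after values were seen. The genes and lists were chosen with earlier results of these data known, and the comparison of paralogues, the CpG ratio and TATAAA were added after the values of the genes were seen.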

Additional observations from a re-analysis of the deposited data

How the results depend on the processing

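Of 85 alternative values, 57 stayed within 1.5 times the value reported and 28 moved further, 13 of them with the union of exons in place of the gene span and 9 without division by length. The median percentile of the 10 genes was 83.0 by counts and 77.8 per kb of span, and 89.8 per kb of exons, where *Dkk1* in place of *Nkd1* lay below the median of all genes. The median PROMPT to gene ratio of 8.35% became 0.919% with exons, 0.155% without division by length and 13.9% over the 4 genes with at least 10 counts in both tables, against 0.728% and 0.167% over all pairs and 18.1% over the 2674 pairs with that minimum. These changes follow from the divisor and the pairs kept. The 1 gene with CTTTGAT became 3 with CTTTGA and 5 with CTTTG, which are shorter letters of the same motif. No paired analysis was possible because the columns are pooled means that carry no replicate number, and no replicate could be left out for the same reason. The depth of single libraries and the spread between them are unknown, so no difference between genes was tested.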
